A study of Mus musculus with 2 samples.

Results

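The amylase locus of mouse chromosome 3 was described from the loops that reached it. Its named genes were Amy1 (113555952 to 113577750) and Amy2b (113147656 to 113156727), 2 of 21631 protein-coding gene records, and both lie in the window from 112.9 to 113.7 Mb in mm10. Of 4982 listed loops, 20 had at least 1 anchor in that window. A loop here is a pair of intervals, the anchors, that the authors' caller listed as joined, and each anchor is 1 pixel of the contact map wide. The locus was chosen by the number of loops per anchor, which is highest in the list here, so that number is given as a description and supports nothing else. The window ended between neighbouring loops. The outermost anchor inside it, starting at 113675001, carried a loop with a peak score (column 8, unitless, from the caller) of 4.86, and the adjoining anchor just outside it, from 113700001 to 113725000, carried a loop of 1725 kb with a peak score of 4.90.

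The cells were V6.5, a male mouse embryonic stem cell line. All were wild type and were transfected with 50 nM of the siGLO control reagent, the siControl group, and were collected after 48 hours. Micro-C, which cuts crosslinked chromatin with micrococcal nuclease before joining the ends in contact, was done on 2 samples of this 1 group. A single loop list stood for both, so no spread between replicates could be measured, nothing was tested, and the read depth is unknown.

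Amylases digest starch. In the mouse, Amy1 encodes the amylase of salivary gland and liver, and the Amy2 genes encode pancreatic amylases. The genes arose by tandem duplication, in which a stretch of chromosome is copied next to itself. Loops of this kind commonly form where cohesin, a ring complex that extrudes chromatin, is stopped at sites bound by the protein CTCF.

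The gene table, from RefSeq on GRCm38.p6 (mm10), held 13 gene records in the window, of which 8 were protein-coding. From low to high coordinates, the amylase records were Amy2b, the pseudogene Amy2-ps1 (113182234 to 113206694), Amy2a5, Amy2a4, Amy2a3, Amy2a2, Amy2a1 and Amy1. All 7 coding amylase genes ran on the minus strand, so each gene starts at its high coordinate. Beyond Amy1 lay Rnpc3 (113605067 to 113630149, minus strand), which encodes a protein of the minor spliceosome. The records of Amy2a4, Amy2a3 and Amy2a2 were 11613, 11604 and 11610 bp long. The low end of Amy2a3 lay 32612 bp beyond that of Amy2a4, and that of Amy2a2 lay 32600 bp further, and the gaps between the records were 20999 and 20996 bp. These 3 records thus had nearly the same length and spacing. Amy2a2 and Amy2a1 were 171436 bp apart, with no gene record between them.

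The sequences before the gene starts show how alike the copies are. RefSeq promoter entries (GRCm38.p6) matched all 7 coding amylase genes, with 8 entries because Amy1 has 2 start sites, 2988 bp apart. Each entry holds 250 bases before a start and 50 after it. The entries of Amy2a4, Amy2a3 and Amy2a2 were identical in 300 of 300 bases, and that of Amy2a1 matched them in 291 of 300 aligned positions, with 7 mismatches and 2 gaps. Of all 32851 entries, 1.58% were identical to an entry of another gene. Amy2a5 shared 162 identical bases with Amy2a4, offset by 138 bases. The annotated starts of these genes therefore lie at different places in the copied sequence. The 250 bases before the start of Amy2a5, of Amy2a4 (the same as in Amy2a3 and Amy2a2) and of Amy2a1 are shown to let this copying be seen, with the run of 112 bases that all of them hold in capitals.
Amy2a5, chr3:113258700-113258949, minus strand: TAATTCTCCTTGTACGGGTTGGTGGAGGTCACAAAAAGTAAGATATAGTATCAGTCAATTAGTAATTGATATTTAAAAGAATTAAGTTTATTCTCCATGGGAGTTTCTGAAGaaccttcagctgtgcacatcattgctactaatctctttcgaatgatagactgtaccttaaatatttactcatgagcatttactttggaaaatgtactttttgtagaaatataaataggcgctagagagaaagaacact
Amy2a4, chr3:113291450-113291699, minus strand: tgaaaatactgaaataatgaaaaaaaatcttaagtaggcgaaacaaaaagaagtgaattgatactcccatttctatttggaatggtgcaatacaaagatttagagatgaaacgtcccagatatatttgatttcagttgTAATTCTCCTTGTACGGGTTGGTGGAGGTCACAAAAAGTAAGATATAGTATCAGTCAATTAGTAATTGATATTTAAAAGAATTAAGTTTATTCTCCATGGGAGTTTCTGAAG
Amy2a1, chr3:113532429-113532678, minus strand: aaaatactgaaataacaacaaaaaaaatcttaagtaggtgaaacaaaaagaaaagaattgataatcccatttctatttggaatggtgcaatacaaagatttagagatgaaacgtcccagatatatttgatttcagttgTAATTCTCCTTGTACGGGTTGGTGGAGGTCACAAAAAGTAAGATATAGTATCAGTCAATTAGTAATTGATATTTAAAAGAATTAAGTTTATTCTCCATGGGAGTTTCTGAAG

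Amy2b and Amy1, at the 2 ends of the cluster, were less alike. Amy2b matched Amy2a5 in 175 of 227 aligned positions (77.1%), and the best alignments of the Amy1 entries to other amylase entries held at most 23 identical bases. The 250 bases before each of their starts, and before that of Rnpc3, are shown because anchors lay at or close to these genes. The letters TATAAA, a form of the TATA box, are in capitals.
Amy2b, chr3:113156728-113156977, minus strand: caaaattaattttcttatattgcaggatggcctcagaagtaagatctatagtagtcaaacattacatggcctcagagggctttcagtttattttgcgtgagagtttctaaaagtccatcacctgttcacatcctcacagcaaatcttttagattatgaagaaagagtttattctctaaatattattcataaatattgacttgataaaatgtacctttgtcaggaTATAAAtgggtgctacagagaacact
Amy1 upstream start, chr3:113577751-113578000, minus strand: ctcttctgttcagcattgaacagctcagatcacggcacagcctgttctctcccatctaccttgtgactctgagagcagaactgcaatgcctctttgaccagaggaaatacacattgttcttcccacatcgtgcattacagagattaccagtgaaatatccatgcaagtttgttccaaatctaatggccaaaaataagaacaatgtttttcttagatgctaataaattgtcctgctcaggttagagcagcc
Amy1 downstream start, chr3:113574763-113575012, minus strand: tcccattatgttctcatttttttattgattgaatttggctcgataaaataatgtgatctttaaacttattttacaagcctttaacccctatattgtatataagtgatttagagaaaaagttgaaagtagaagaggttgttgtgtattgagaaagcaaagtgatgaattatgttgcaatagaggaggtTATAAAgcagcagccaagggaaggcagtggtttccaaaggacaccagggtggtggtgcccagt
Rnpc3, chr3:113630150-113630399, minus strand: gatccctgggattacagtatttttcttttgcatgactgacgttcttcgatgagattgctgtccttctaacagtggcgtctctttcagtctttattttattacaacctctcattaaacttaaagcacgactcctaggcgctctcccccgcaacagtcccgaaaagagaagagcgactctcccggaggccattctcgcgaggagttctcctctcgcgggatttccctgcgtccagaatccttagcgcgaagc
On either strand TATAAA stood in 3 of the 8 amylase windows of 250 bases, beginning 26 bases before the start of Amy2b, 30 before that of Amy2a5 and 63 before the downstream start of Amy1. Of all promoter windows of this length 12.4% held it. The windows of Amy2a4, Amy2a3, Amy2a2 and Amy2a1 are offset by 138 bases from that of Amy2a5. They stop before the place matching its TATAAA, so they do not show whether these letters stand there. The letters AGGGGGC, a core part of the CTCF motif searched on both strands, were in 0 of the 8 amylase windows and not in that of Rnpc3, and in 9.43% of all windows. Only this exact string was searched, and beside that share 0 of 8 does not set the amylase windows apart. These windows are not the anchors themselves, whose sequence was not analysed here.

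The 20 loops formed 2 groups of anchors on either side of a stretch with none. Merging anchors that shared at least 1 bp gave 8 merged anchors in the window, 4 on each side. Between them, from 113225001 to 113560000, no loop of the list had an anchor over 335 kb. This stretch holds Amy2a5, Amy2a4, Amy2a3, Amy2a2 and Amy2a1 whole, and the low end of Amy1. A stretch of this length without an anchor is common. Of 7844 tiles of the same length over the genome, 44.9% had none, and of the 1436 tiles that overlapped at least 6 protein-coding records, as this one does, 476 had none. The lower side alone held 12 loops, the upper side alone held 5, and 3 ran across the stretch.

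**Figure D1:**
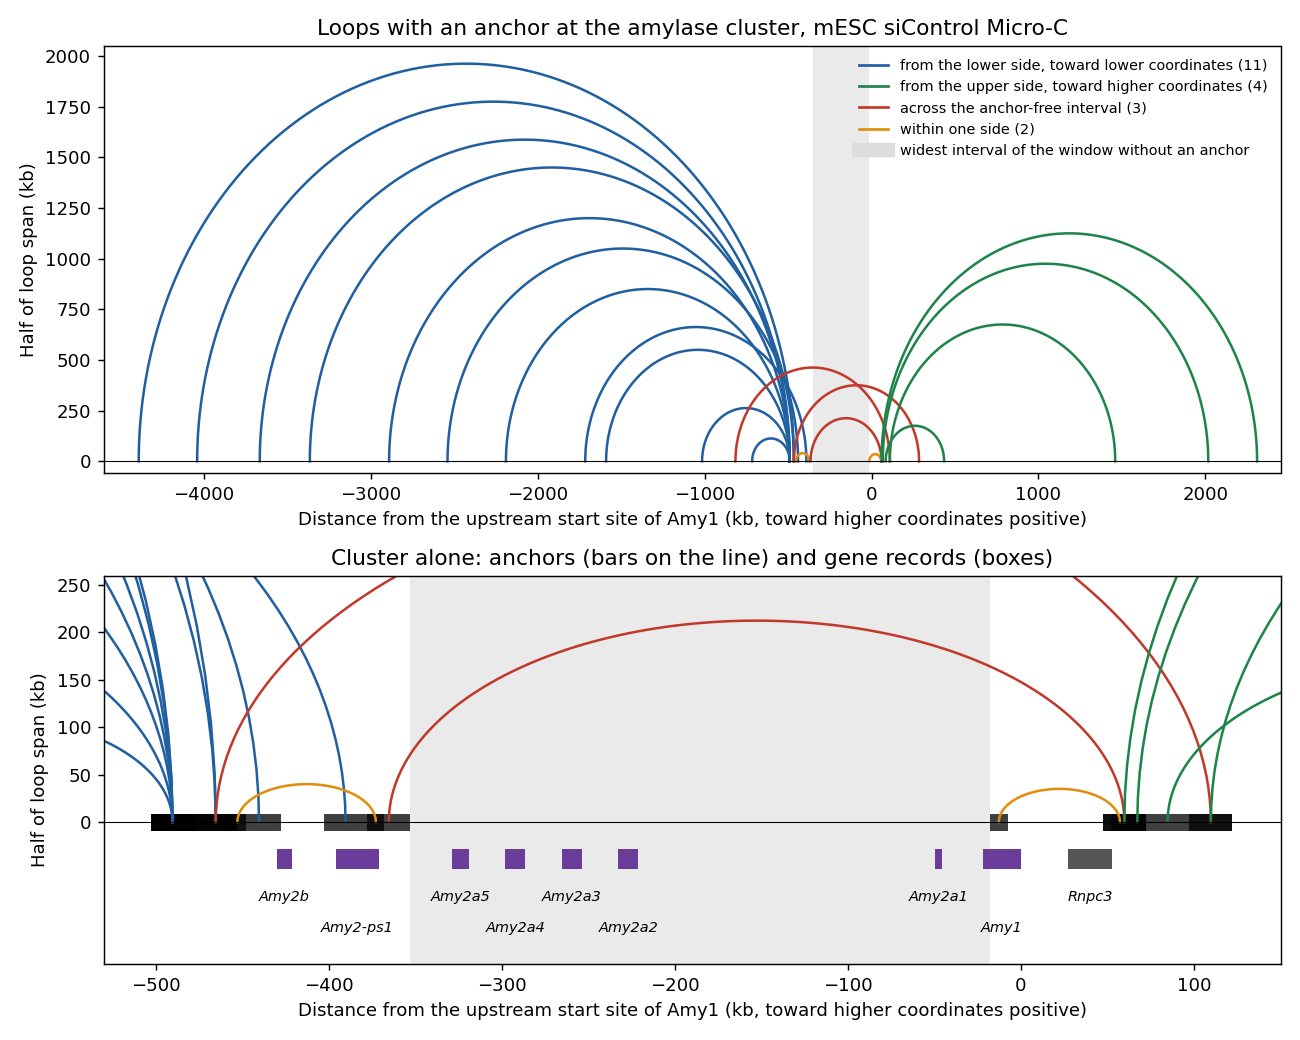
The 20 loops drawn as arcs over distance from the upstream start site of Amy1 in kb, above for all of them and below for the cluster alone, where bars on the line are anchors and boxes are gene records. The height of an arc is its radius in kb, and 11 arcs leave the lower side for lower coordinates while the shaded 335 kb hold no anchor.

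On the lower side, 2 adjoining merged anchors carried most loops. The first (113075001 to 113100000) held no gene record and had 7 loops, all toward lower coordinates. The second (113100001 to 113150000) had 5 loops, of which 3 ran toward lower coordinates and 2 toward higher ones. It holds the low end of Amy2b, which is the 3′ end of this gene. Only 1 of its loops, that of 2100 kb, had its own anchor over this end. The 25 kb pixels of this merged anchor were 113100001 to 113125000 and 113125001 to 113150000. They were merged only through a 10 kb anchor (113120001 to 113130000) that overlaps both, so the 5 loops do not share 1 pixel. The start of Amy2b lay 6727 bp from the nearest of these anchors. The other anchors of this side (113175001 to 113200000, with 1 loop, and 113200001 to 113225000, with 2 loops) lay on the low and high ends of the pseudogene Amy2-ps1.

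On the upper side the busiest merged anchor (113625001 to 113650000) had 4 loops and held the high end, and hence the start site, of Rnpc3. An anchor of 10 kb with 1 loop (113560001 to 113570000) lay inside Amy1 and held neither end of it. The downstream start of Amy1 lay 4762 bp and the upstream start 7750 bp from the nearest anchor. The remaining anchors of this side, with 1 and 2 loops, lay between Rnpc3 and the end of the window. At least 4 loops were thus found at 3 of these 8 anchors, against 0.275% of the 8740 in the list, but the locus was chosen for this.

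**Figure D2:**
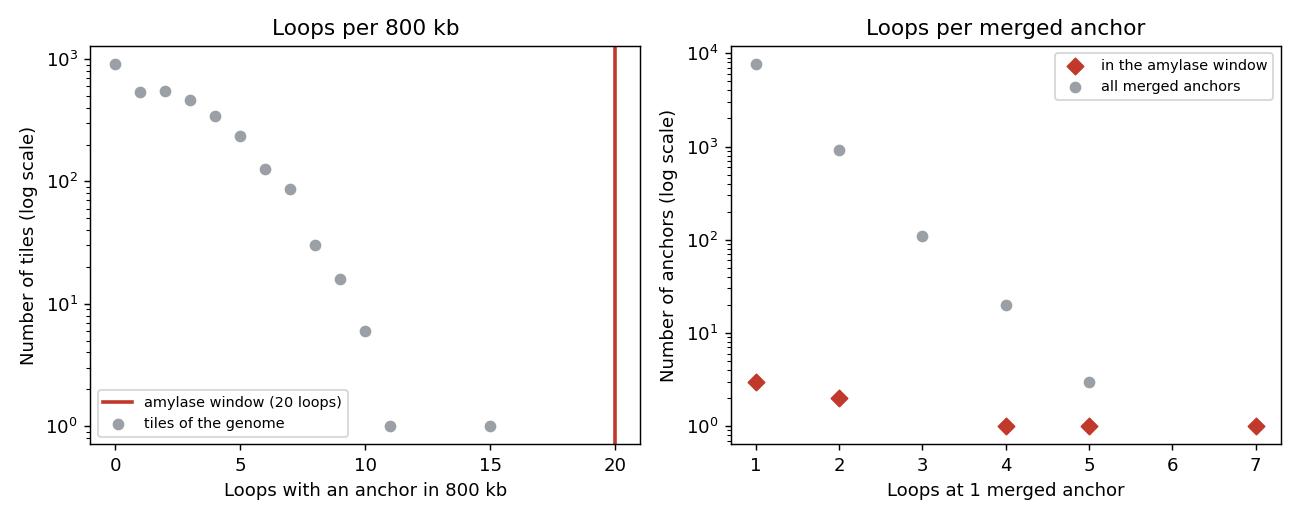
Left, the number of loops with an anchor in each 800 kb tile of the genome (grey points, log axis) beside the amylase window (red line at 20). Right, the number of loops at each merged anchor for the 8 anchors of the window (red) and all 8740 (grey, log axis), where the single anchor with 7 loops is in the window.

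Per 800 kb, no tile of the genome reached 20 loops. Over 3298 tiles of this length the median was 2 loops. The fullest, with 15 loops, began at 112800001 on chromosome 3 and thus covered most of the amylase window itself. The next fullest tile, on chromosome 2, had 11. The window was set on a locus chosen for its loops per anchor, whereas the tiles lie on a fixed grid. The 20 is therefore a description only.

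Of the 7 coding amylase genes 1, Amy2b, had an end in an anchor. Of all protein-coding genes 9.04% had one, so this count of 1 does not set the amylase genes apart. With the pseudogene included, 4 of the 20 loops had an amylase gene end in an anchor. Over the annotated start sites of the coding amylase genes, 0 loops had an anchor, while 3 loops had one over the start site of Rnpc3. No share over all start sites was computed, and the 9.04% counts either end. This 0 therefore does not set the amylase genes apart. From the starts of Amy2a5, Amy2a4, Amy2a3 and Amy2a2 the nearest anchor of the window was 33699, 66449, 99052 and 131658 bp away, and from that of Amy2a1 it was 27573 bp away.

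The loops were mapped in coarse pixels and over long spans. Of the 20 loops 17 were of 25 kb pixels, a class that made up 13.4% of the list, 3 were of 10 kb pixels, and 0 were of 5 kb pixels, against 1265 loops of 5 kb pixels in the whole list. Spans, measured between anchor midpoints, ran from 70 to 3925 kb with a median of 1337.5 kb, against 320 kb in the rest of the list. Loops over 1 Mb numbered 12 of 20, and 8.39% of the list. The rest of chromosome 3 had a median span of 370 kb. Within 25 kb pixels the window's 17 loops had a median span of 1350 kb, against 625 kb for the other 653.

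The 11 loops from the lower side to lower coordinates formed a fan with far anchors spread over several Mb. All were of 25 kb pixels. The farthest far anchor (109175001 to 109200000) held the gene record Gm13865. Its nearest protein-coding gene, 6592 bp away, was Slc25a24, which encodes a mitochondrial carrier. The loop of this anchor spanned 3925 kb with a peak score of 7.57. The next (109525001 to 109550000) lay within Vav3, and its loop of 3550 kb scored 7.69. The loop of 3175 kb ended within Ntng1, a gene of axon guidance, at 109900001 to 109925000, and scored 5.98. The loop of 2900 kb ended between Ntng1 and the arginine methyltransferase gene Prmt6, at 110200001 to 110225000, and scored 7.12.

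Toward the cluster the far anchors entered a stretch with no protein-coding gene, from Prmt6 to Amy2b. Loops of 2400, 2100 and 1700 kb ended there at 110675001, 111025001 and 111375001 with peak scores of 5.89, 4.36 and 4.65. The loop of 1325 kb, from Amy2-ps1 to 111850001, scored 4.07. The loop of 1100 kb ended within the long noncoding RNA gene Gm6602, at 111975001, and scored 4.81. The shortest loops of the fan, of 525 and 225 kb, scored 4.47 and 3.34. Neighbouring far anchors were 125 to 575 kb apart. The nearest lower anchor of any loop not of the window ended just before 109495001. Over the 3405 kb from there to the window, 11 loops had an anchor. That all 11 were loops of the amylase window follows from this choice of the start. They are not the same 11 as the fan. The fan's farthest loop, ending at 109175001, is left out, and a loop of 925 kb from 112750001 to the upper side is included.

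Within this fan the longer loops had the higher peak scores. Spearman's rho of span with peak score was 0.86 over the 11 loops, and 0.40 over the 653 loops of 25 kb pixels outside the window. The peak pixel (column 15), the value at the loop in a contact map whose normalization is unknown, ran the other way, with a rho of -0.73 in the fan and -0.53 outside the window. The mean of the 8 pixels around the peak was also lower in longer loops, with a rho of -0.79 in the fan and -0.64 outside. These loops share a contact map, and 7 of the 11 share an anchor, so the values are descriptions.

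The 4 loops from the upper side to higher coordinates reached toward Col11a1 and beyond. A loop of 350 kb ended at 114000001 to 114025000, 5540 bp before the start site of Col11a1, which encodes a chain of a fibrillar collagen, and had a peak score of 4.99 and a peak pixel of 14.7. That was the highest peak pixel of the window. A loop of 1350 kb (peak score 4.86) ended within Olfm3, a gene of the olfactomedin family. A loop of 1950 kb and 10 kb pixels (5.74) ended at 115590001 to 115600000, away from any gene record. A loop of 2250 kb (6.63) joined the anchor at the start of Rnpc3 to one with an end of Dph5, a gene of diphthamide synthesis, and the noncoding RNA gene A930005H10Rik. On this flank the list also held 2 loops that were not of the window.

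The loop with the highest peak score bracketed the duplicated genes. It joined Amy2-ps1 (113200001 to 113225000) to the anchor at the start of Rnpc3 (113625001 to 113650000) over 425 kb and thus enclosed Amy2a5 to Amy1, with Amy2b left outside. Its peak score of 17.9 was the 12th highest of all 4982 loops and the 5th of the 670 loops of 25 kb pixels. Its regional score was 9.36, the 4th highest of those 670. Its peak pixel, however, was 9.03, at percentile 12.9 of loops of this pixel size, and stood 1.71 times above its neighbours, at percentile 75.9. The score was thus near the top of its pixel class while the pixel was near the bottom.

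The 2 other loops that crossed the anchor-free stretch had 1 anchor each outside the window. One joined 112750001 to 112775000 with the anchor starting at 113675001 over 925 kb (peak score 5.39, peak pixel 6.59). The other joined 113100001 to 113125000 with 113850001 to 113875000 over 750 kb (peak score 6.42, peak pixel 8.14). Both enclosed all coding amylase genes.

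The short loops lay at the edges. On the lower side a loop of 80 kb and 10 kb pixels joined a site 17656 bp from the 3′ end of Amy2b to the high end of Amy2-ps1 and enclosed Amy2b (peak score 6.06, peak pixel 5.64). On the upper side a loop of 70 kb and 10 kb pixels joined the body of Amy1 to the start of Rnpc3, with a peak score of 3.07 and a peak pixel of 2.76. That peak pixel was the lowest of all 3047 loops of 10 kb pixels. The span of 70 kb was the shortest in that class, shared by 17 loops.

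Across the 20 loops the peak scores were high and the contact values low for their pixel size. The peak score of column 8 had a median of 5.56, against 4.15 in the rest of the list, and its median percentile among loops of the same pixel size was 89.8, with 18 of 20 above the middle. The peak pixel of column 15 had a median percentile of 13.7, with 1 of 20 above the middle and 16 below the lower quartile. Among 25 kb pixels the median peak pixel was 9.03 in the window, against 14.3 in the rest. The mean of the 8 neighbouring pixels was lower still in rank, at a median percentile of 9.48, with 0 of 20 above the middle. The median of this mean among 25 kb pixels was 4.92 in the window, against 9.83 in the rest.

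The ratio of the peak pixel to its neighbours had a median percentile of 86.3, with 19 of 20 loops above the middle. Among 25 kb pixels its median was 1.83 in the window, against 1.49 in the rest. This ratio was also higher in longer loops outside the window, with a Spearman rho of 0.52 over the 653 loops of 25 kb pixels. Among loops of 25 kb pixels longer loops had lower contact values, as given above. When each loop was set beside loops of its pixel size with a span within a factor of 2, the median percentile of the peak pixel was 25.1, that of the neighbours was 15.2, that of the ratio was 83.6 and that of the peak score was 81.9. Even this band took in shorter loops beside the longest ones. The window's loops of 2900 to 3925 kb had peak pixels of 7.30 to 9.97, which lay among those of other loops as long. A low peak pixel thus did not hold at the longest spans. Values that chose the locus were numbers of loops per anchor, and scores and pixels of the same loops are not independent of them.

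**Figure D3:**
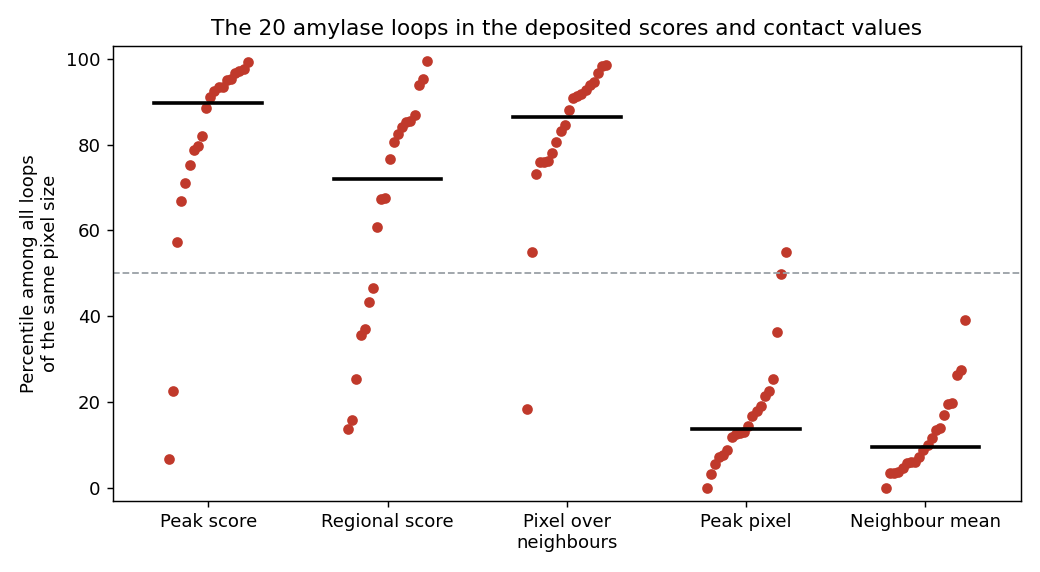
Each point is 1 of the 20 amylase loops, placed by its percentile among all loops of the same pixel size in 5 deposited or derived values, and each black bar is the median of the 20. Peak scores sit high (median 89.8) and peak pixels low (median 13.7), and the dashed line marks the middle.

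**Figure D4:**
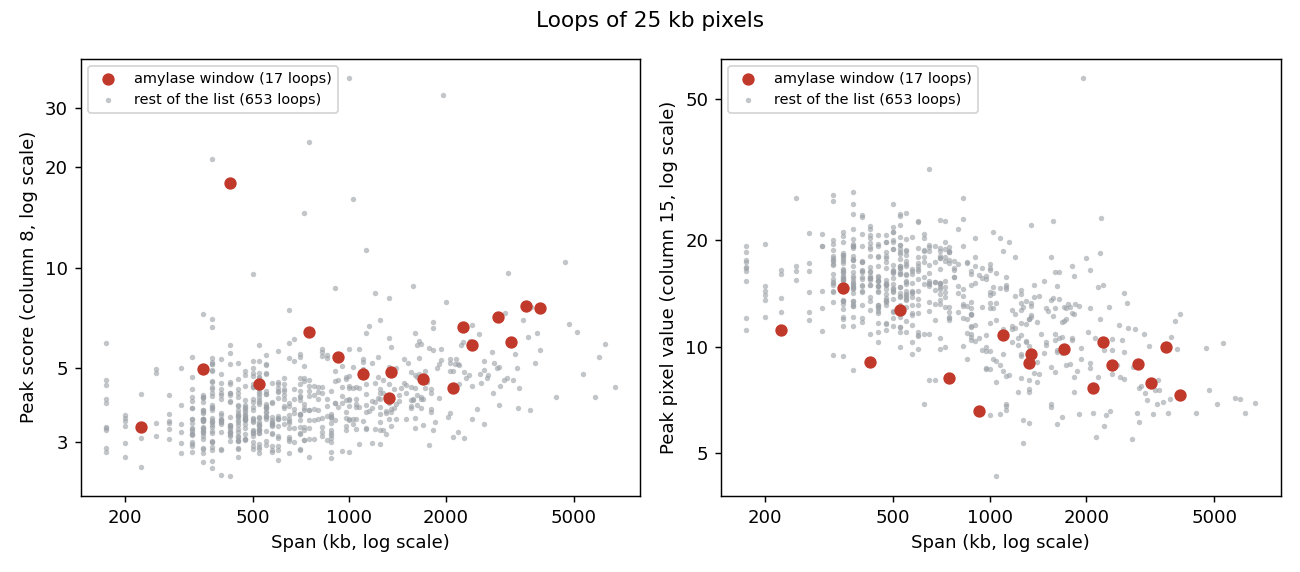
Peak score (left) and peak pixel value (right) against span for loops of 25 kb pixels, all on log axes, with the 17 loops of the amylase window in red and the 653 others in grey. The loop with a peak score of 17.9 stands above the window's others at the left. Most red points lie in the lower part of the grey cloud at the right, but those of the longest spans lie among the grey points.

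The other merged anchors with at least 5 loops had lower median score percentiles than the 2 of the amylase window. Peak pixel percentiles overlapped between them. The anchor within Lsamp on chromosome 16, a gene of neuronal cell adhesion, had 5 loops, all toward higher coordinates, with spans of 725 to 1825 kb. Their peak scores had a median percentile of 23.8 and their peak pixels one of 45.1 for their pixel sizes. The anchor with the homeobox genes Evx2 and Hoxd13 on chromosome 2 had 5 loops, all toward lower coordinates, with spans of 360 to 3125 kb and median percentiles of 41.7 for the score and 18.3 for the pixel. In the amylase window the anchor with 7 loops had median percentiles of 78.7 and 17.8, and the one with 5 loops 95.0 and 8.73. The latter reached 5 loops only by the merging through a 10 kb anchor given above. Low peak pixels were thus also seen at the Evx2 anchor. Its loop of 3125 kb scored 9.63, above every loop of these 2 amylase anchors, although its median score percentile was lower. These percentiles were matched for pixel size but not for span. Median spans were 1350 kb at the Lsamp anchor and 705 kb at the Evx2 anchor. At the amylase anchors with 7 and 5 loops they were 1700 and 2100 kb. The differences between anchors were not tested, since loops of 1 anchor are not replicates.

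Annotated copies of the amylase genes lay both at anchors and between them. Reads that fit several copies equally well cannot be placed in one of them, and neither labels nor notes used here say how the authors' alignment treated such reads. The 5 genes Amy2a5 to Amy2a1, whose promoter entries shared long identical runs, lay in the stretch without an anchor. Annotated amylase copies overlapped anchors of 5 of the 20 loops, at Amy2b, Amy2-ps1 and Amy1. These include the loop with the highest peak score and the loop with the lowest peak pixel. The others, 1 at Amy2b and the rest at Amy2-ps1, had peak score percentiles of 66.9, 57.4 and 93.3 for their pixel sizes. Their peak pixel percentiles were 7.09, 12.8 and 21.4. The next lowest peak pixel percentile of the window, 3.21, belonged to a loop with no gene record in its anchors. The anchor with 7 loops overlapped no gene record and lay 47656 bp from Amy2b. The part of duplicated sequence in the position of the anchors, in the scores or in the low contact values was not tested.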

How the data were processed

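Micro-C of 2 samples of V6.5 cells, both siControl, was available as 1 loop list without a header. Per the submitters' processing notes, Juicer 1.5.6 and mm10 were used. Neither labels nor notes used here name the caller, its settings, the normalization of the map, any pooling or the depth. The deposited scores of columns 8 and 10, the deposited fraction of column 9 (0.999 to 1 in the window) and the deposited signal of columns 11, 13 and 15 were used as the authors gave them. Their meaning was inferred. Column 15 minus 8/9 of column 11 equalled column 13 to within 2.33e-06 in every line, so column 15 was read as the peak pixel and column 15 minus column 11 as the mean of its 8 neighbours. These values describe and rank loops within this list only.

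Anchors were turned into 1-based coordinates. Percentiles share ties equally. Promoter entries were aligned locally with Biopython 1.88 (match 2, mismatch -3, gap opening -5, extension -2). The counting steps were checked on simulated loops. Named genes are the amylase genes, Rnpc3, Col11a1, Prmt6, Ntng1, records in the window or nearest the far anchors, and the other anchors with at least 5 loops. Vav3, Slc25a24, Olfm3 and Gm6602 were added after their anchors were seen. The members, lists and descriptions were chosen with earlier results of these data known. No test was run and no p-value computed, since the 1 list gives no values per sample.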

Additional observations from a re-analysis of the deposited data

How the results depend on the processing

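No paired analysis was possible because both samples share 1 list, and no replicate could be left out. Of 18 alternative values, 12 stayed within 1.5 times the reported count or 10% of the reported value. The number of loops, 20, was 3 with both anchors required in the window and 3 without 25 kb pixels, the class of 17 of the 20. The median percentile of the peak score, 89.8, was 72.1 with the regional score of column 10. Beside loops of like span, the median percentile of the peak pixel was 25.1 and that of the neighbour mean 15.2, in place of 13.7 and 9.48. Merging adjoining anchors too gave an anchor with 12 loops in place of 7. The settings without the loop of highest score, without loops inside the window, with 25 kb pixels only for the anchors, and of like span for the neighbour mean and the ratio were chosen after seeing the data. The unknown depth and the coarse pixels limit the position of each anchor.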
